A study of Mus musculus with 9 samples.

Results

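Intracellular serpins are suicide substrates of proteases: a protease cleaves an exposed loop of the serpin and is trapped in a covalent complex. Cytotoxic lymphocytes store granzymes and cathepsins in their granules and carry such serpins in the cytosol and nucleus, where they inactivate proteases that leak out. The serpins described here were 6 listed mouse genes. Serpinb9 encodes an inhibitor of granzyme B, Serpinb9b an inhibitor of granzyme M and Serpinb6b an inhibitor of granzyme A. Serpinb6a and Serpinb1a encode inhibitors of cathepsin G and related enzymes, and Serpina3g an inhibitor of cathepsins. The genes were chosen by symbol, with earlier results of these data known, and each was represented by the probe set selected on the highest mean value over all 9 arrays. Of the 6 genes, 5 had a probe set of their own among the 41345 probe sets. Serpina3g had none under its symbol, and its expression was not analysed here. Serpinb9b had 2 probe sets, with means of 10.85 and 6.45 log2 units, and the brighter one stood for the gene. A further probe set lists Serpinb6a together with another symbol and was left out.

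The cells were splenic natural killer (NK) cells of female C57BL/6N mice. Cells of 3 to 4 mice were pooled, enriched with beads against the DX5 antigen and grown with 5000 U/ml of the human cytokine IL-2 until day 7. Tyk2, a Janus kinase, transmits signals of interferon-alpha and -beta and of IL-12. The groups were Tyk2-/- (lacking Tyk2), Tyk2K923E (a kinase-inactive mutant) and wild type (WT), with 3 arrays each. Arrays numbered 1, 2 and 3 came from 3 independent experiments that each held every genotype. Values below are log2 expression values, differences are in log2 units with the first genotype minus the second, and SDs are over 3 arrays. Differences were tested with limma, with the experiments paired, over 12579 genes, and p-values were adjusted over all of these. All 5 measured serpins were among them, and each reached its array's median on 9 of 9 arrays.

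The array medians lay between 5.42 and 5.48. The probe set of Tyk2 averaged 9.01 ± 0.48 on the arrays labelled Tyk2-/-, 8.53 ± 0.10 in Tyk2K923E and 8.62 ± 0.06 in WT (SD, n = 3). It was not lower in Tyk2-/- (0.39 higher than in WT, adjusted p = 0.488), and since the sources used here do not place its probes relative to the deleted part, it checks no label. All 12 NK cell markers reached the medians, with mean marker levels of 10.88 to 10.99 in Tyk2-/-, 10.88 to 10.92 in Tyk2K923E and 11.02 to 11.08 in WT. The mean over 12 T cell markers was 8.07 to 8.36 in Tyk2-/-, 7.79 to 8.07 in Tyk2K923E and 8.08 to 8.48 in WT. Of these 12, 0 stayed under the medians on every array. Over the 9 arrays Cd3g averaged 11.40 and Cd3e 11.23, near the NK cell marker Ncr1 at 11.31, whereas Cd4 averaged 5.42. The share of T cells in the cultures was not tested. On every array, 3 of 4 B cell markers, 5 of 8 neutrophil markers, 3 of 5 dendritic cell markers and 2 of 6 monocyte and macrophage markers stayed under the medians. Among all 23521 probe sets with 1 symbol, 13245 reached the medians on 3 or more arrays. These counts alone do not show that a cell type was absent. In bulk cultures like these, fewer cells of a type and less RNA per cell cannot be told apart.

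Serpinb9 and Serpinb9b are neighbours in the serpin cluster of chromosome 13, which holds 16 protein-coding clade B serpin genes in the RefSeq annotation, the 5 measured ones among them. Their upstream sequences are shown because these close paralogues gave the flattest and the most variable readings of the 5. Whether the sequences bear on these readings was not tested. The windows are the 250 bases before the start site from RefSeq (GRCm38.p6), on the + strand, at chr13:33004291-33004540 for Serpinb9 and chr13:33027164-33027413 for Serpinb9b. Capitals mark a match to the core of the interferon-stimulated response element (GAAANNGAAA, searched on both strands).
Serpinb9: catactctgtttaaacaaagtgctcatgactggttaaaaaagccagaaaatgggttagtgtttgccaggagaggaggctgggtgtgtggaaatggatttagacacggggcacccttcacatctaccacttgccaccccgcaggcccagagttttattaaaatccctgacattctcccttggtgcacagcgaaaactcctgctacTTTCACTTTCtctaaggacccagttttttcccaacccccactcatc
Serpinb9b: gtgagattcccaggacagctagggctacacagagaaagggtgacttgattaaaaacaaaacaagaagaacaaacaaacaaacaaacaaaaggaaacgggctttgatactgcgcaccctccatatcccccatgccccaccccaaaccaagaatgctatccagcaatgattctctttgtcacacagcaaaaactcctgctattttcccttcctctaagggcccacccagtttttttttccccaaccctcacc

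A global alignment paired 151 identical and 81 different bases of these windows, an identity of 65.1% of the paired bases. With its 36 gap columns counted, the identity was 56.3%. By paired bases, the window of Serpinb6b had an identity of 45.8% with that of Serpinb9 and 45.9% with that of Serpinb9b. The Serpinb9 window held 1 match to the element, TTTCACTTTC, which is the core read from the other strand and ends 37 bases before the start site. The alignment set it against TTTCCCTTCC in Serpinb9b, with the substitutions A5C and T9C (the base of Serpinb9 first, counted from 1 at the 5′ end of the 10 bases). A5C falls on a free base (N) of the core, so T9C alone removes the match. Of 32851 promoter windows of this length, 2.98% held the core. The letters TTCNNNGAA of the interferon-gamma-activated site, a palindrome on both strands, were in neither window and in 7.02% of all windows. Of the 2 windows listed for Serpinb6a, 1 held both motifs, and they overlapped. The window of Serpinb6b held neither motif, that of Serpina3g held 1 match to TTCNNNGAA, and no window of Serpinb1a was used here.

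Compared with WT, the 5 serpins showed no change past the threshold in Tyk2-/- cells. The threshold was an adjusted p of 0.05, which 0 of 5 serpins passed, and 0.0874% of all genes tested passed it. By an unadjusted p under 0.05 there was 1 of 5, Serpinb6b, lower in Tyk2-/- by 0.16, against 9.08% of all genes. Differences had the same sign in all 3 experiments for 3 of 5 serpins, against 30.1% of all genes. Of the 5, 4 were lower in Tyk2-/-, against 48.1% of all genes tested. The median difference of the 5 was -0.12, where the median over all genes tested was 0.00445.

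In Tyk2K923E cells, Serpinb9b was the serpin that differed most from WT, at 0.51 higher. It did not pass the threshold over all genes, and 0 of 5 serpins did, against 0.0874% of all genes. By an unadjusted p under 0.05 there were 2 of 5, Serpinb9b and Serpinb6a, both higher in Tyk2K923E, against 10.0% of all genes. The sign was the same in all 3 experiments for 3 of 5 serpins, against 30.9% of all genes. Of the 5, 4 were higher in Tyk2K923E and 1 was lower, where 49.1% of all genes tested were lower. The median difference of the 5 was 0.13, where the median over all genes tested was 0.00202.

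Between the mutants, all 5 serpins were lower in Tyk2-/- than in Tyk2K923E cells, against 48.9% of all genes tested. The median difference of the 5 was -0.12 against 0.00255 over all genes tested. None of the 5 passed the threshold in limma, which 0.0238% of all genes did. By an unadjusted p under 0.05 there were 2 of 5, Serpinb9b and Serpinb1a, against 9.68% of all genes. The sign was the same in all 3 experiments for 3 of 5, against 28.5% of all genes. These 3 comparisons share arrays, so their values are not independent of each other.

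**Figure D1:**
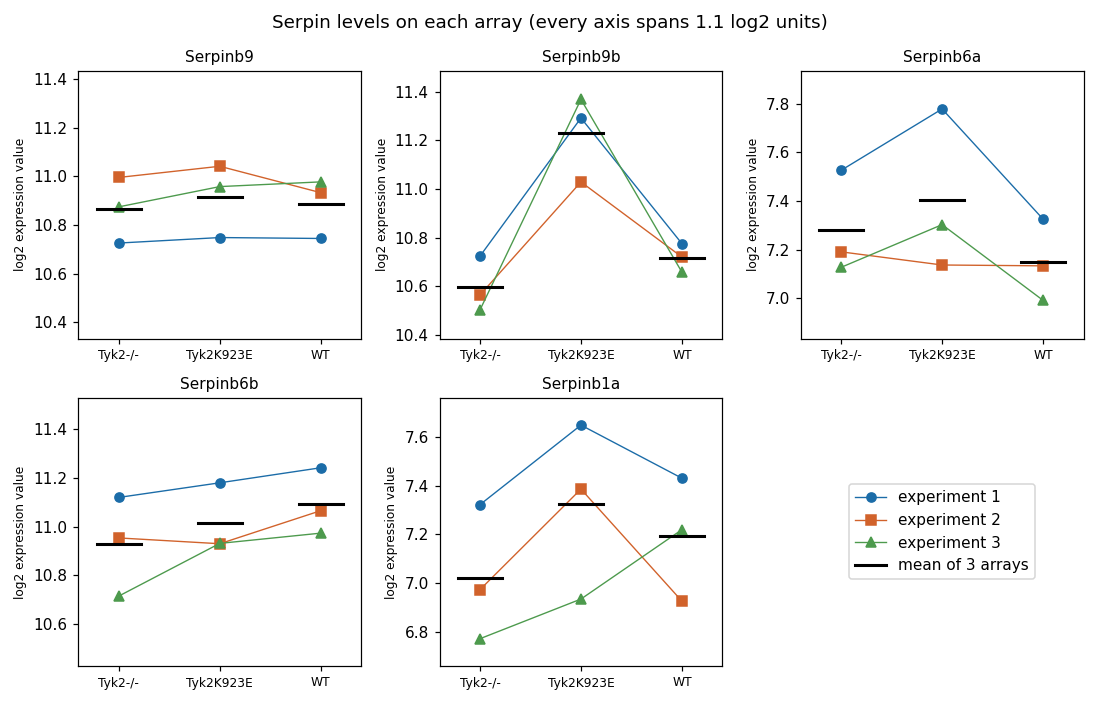
Log2 expression value (vertical axis) of each measured serpin on every array, by genotype (horizontal axis). Symbols joined by lines are arrays of the same experiment and black bars are means of 3 arrays. The Serpinb9b values of Tyk2K923E, 11.03 to 11.37, lie above all 6 others, whereas those of Serpinb9 overlap between genotypes.

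Serpinb9, the granzyme B inhibitor that protects killer cells from their own granules, was nearly level across genotypes. It read 10.73, 11.00 and 10.87 in Tyk2-/- (experiments 1 to 3), 10.75, 11.04 and 10.96 in Tyk2K923E and 10.75, 10.93 and 10.98 in WT. The 3 genotypes overlapped, and the array of experiment 1 was the lowest in each. After subtraction of the experiment means its 9 values spanned 0.11, a range at or above that of 5.15% of the genes tested. Its difference was -0.02 in Tyk2-/- against WT (95% interval -0.16 to 0.12, adjusted p = 0.942) and 0.03 in Tyk2K923E against WT (-0.11 to 0.17, adjusted p = 0.913). Tyk2-/- minus Tyk2K923E was -0.05 (-0.19 to 0.09, adjusted p = 0.785). The largest difference that these intervals hold is 0.19 in size.

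Serpinb9b, the paralogue that inhibits granzyme M in mice, stood apart in Tyk2K923E cells. It read 10.72, 10.56 and 10.50 in Tyk2-/-, 11.29, 11.03 and 11.37 in Tyk2K923E and 10.78, 10.72 and 10.66 in WT. The 3 values of Tyk2K923E lay above all 6 others, and Tyk2-/- and WT overlapped. Its range after subtraction of the experiment means was 0.87, at or above that of 98.3% of the genes tested.

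The mean of Serpinb9b was 11.23 ± 0.18 in Tyk2K923E and 10.72 ± 0.06 in WT (SD, n = 3), a difference of 0.51 or 1.43-fold (SE 0.09, 95% interval 0.31 to 0.71). By experiment this difference was 0.52, 0.31 and 0.71. Its unadjusted limma p was 3.79e-04, the 52nd smallest of 12579, and the adjusted p was 0.0916 with the experiments paired and 0.379 without pairing. Only a fit with an intensity-dependent prior variance gave an adjusted p under the threshold, 0.044, and over all alternatives it ranged up to 0.478.

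In Tyk2-/- cells the mean of Serpinb9b was 10.60 ± 0.11, which is 0.63 under that of Tyk2K923E (SE 0.09, 95% interval -0.83 to -0.43). This was a difference of -0.57, -0.46 and -0.87 by experiment, with an unadjusted limma p of 8.86e-05, the 10th smallest of all genes, and an adjusted p of 0.111 (0.522 without pairing). Against WT, Serpinb9b differed in Tyk2-/- by -0.12 (-0.32 to 0.08, adjusted p = 0.716). The interval of Serpinb9b in Tyk2K923E against WT did not overlap that of Serpinb9, but the difference between these genes was not tested.

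The dimmer probe set of Serpinb9b (17547771) was not used to choose the gene's reading and ordered the genotypes alike. It read 6.29, 6.28 and 6.00 in Tyk2-/-, 6.80, 6.52 and 6.77 in Tyk2K923E and 6.56, 6.43 and 6.42 in WT. Its Tyk2-/- values lay under all others, and Tyk2K923E overlapped WT, although it was the higher of the pair in each experiment. Fitted among all 13245 passing probe sets, it differed by 0.23 in Tyk2K923E against WT (95% interval 0.01 to 0.44, adjusted p = 0.478). It differed by -0.28 in Tyk2-/- against WT (-0.49 to -0.06, adjusted p = 0.465) and by -0.51 in Tyk2-/- against Tyk2K923E (-0.72 to -0.29, adjusted p = 0.343). Both probe sets were hybridised with the same RNA, so the second adds no replicate of the cultures.

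**Figure D2:**
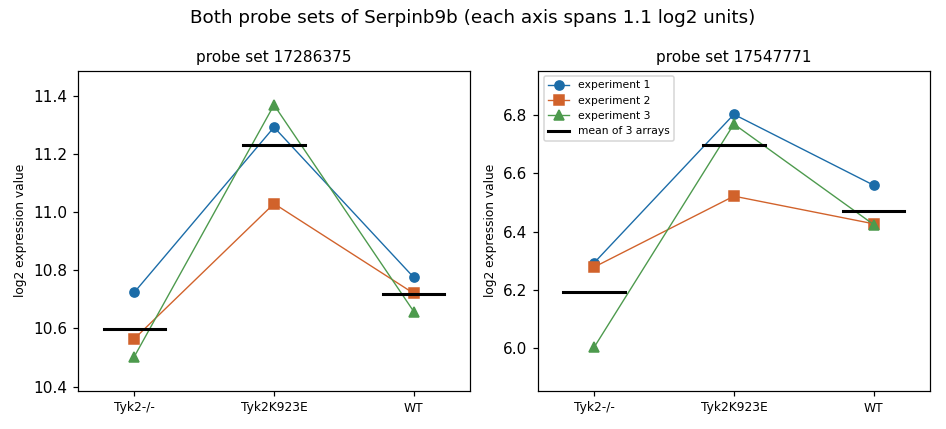
Log2 expression value of Serpinb9b by its brighter (left) and dimmer (right) probe set, for the 3 genotypes and experiments, with means of 3 arrays as black bars. In every experiment and on both probe sets Tyk2K923E was highest and Tyk2-/- lowest.

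Of the tested markers of other cell types, 0 passed the threshold in Tyk2K923E against WT, which 0.0874% of all genes did. Their values are given beside those of Serpinb9b. The mean over 6 basophil and mast cell markers was 5.45 to 5.59 in Tyk2-/-, 5.56 to 5.84 in Tyk2K923E and 5.37 to 5.47 in WT, with 4 of the 6 under the array medians on every array. The other members of that list were Mcpt8, a basophil protease 0.77 higher in Tyk2K923E than in WT (adjusted p = 0.0684), and Cpa3, a mast cell and basophil carboxypeptidase 0.91 higher (adjusted p = 0.19). Mcpt8 read 10.39, 11.06 and 10.22 in Tyk2-/-, 10.99, 11.04 and 10.47 in Tyk2K923E and 10.04, 10.28 and 9.87 in WT. It was thus also higher in Tyk2-/- than in WT, by 0.49 (adjusted p = 0.287), where Serpinb9b was 0.12 lower (difference -0.12), whereas Cpa3 differed by -0.02 there. Of the 2 tested monocyte and macrophage markers, Cd14, a lipopolysaccharide co-receptor, was 0.42 higher in Tyk2K923E than in WT (adjusted p = 0.102), with 0.53, 0.39 and 0.34 by experiment, and Cd68 differed by -0.24 (adjusted p = 0.602). Of 11 tested T cell markers, all 11 were lower in Tyk2K923E than in WT, against 49.1% of all genes tested. The median difference of the 11 was -0.38, with Cd8a among them at -0.92 (adjusted p = 0.173). The sign was the same in all 3 experiments for 3 of these 11. Itga2, the NK cell integrin that DX5 binds, was 0.71 lower in Tyk2K923E than in WT (adjusted p = 0.0375). It was also lower in Tyk2-/- than in WT, by 0.39 (adjusted p = 0.254), with the same sign in each experiment. Cd14 differed there by 0.20 (adjusted p = 0.472) and Cd68 by -0.08 (adjusted p = 0.883). The part of these cells in the Serpinb9b reading was not tested.

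Serpinb6b, the granzyme A inhibitor, read 11.12, 10.95 and 10.71 in Tyk2-/-, 11.18, 10.93 and 10.93 in Tyk2K923E and 11.24, 11.07 and 10.97 in WT. WT was highest in each experiment, but the groups overlapped because the experiments differed. Tyk2-/- minus WT was -0.16 (95% interval -0.31 to -0.02), or -0.12, -0.11 and -0.26 by experiment, with an adjusted p of 0.504. Tyk2K923E minus WT was -0.08 (-0.23 to 0.07, adjusted p = 0.754) and Tyk2-/- minus Tyk2K923E was -0.08 (-0.23 to 0.06, adjusted p = 0.675).

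Among the inhibitors of cathepsin G, Serpinb6a read 7.53, 7.19 and 7.13 in Tyk2-/-, 7.78, 7.14 and 7.30 in Tyk2K923E and 7.33, 7.13 and 6.99 in WT. The genotypes overlapped, and experiment 1 was highest in each. Tyk2K923E exceeded WT by 0.26 (95% interval 0.06 to 0.45, adjusted p = 0.366), but nearly all of this came from experiments 1 and 3, at 0.45 and 0.31, since experiment 2 gave 0.00344. Tyk2-/- exceeded WT by 0.13 (-0.07 to 0.33, adjusted p = 0.694) and lay 0.12 under Tyk2K923E (-0.32 to 0.07, adjusted p = 0.645).

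Serpinb1a, known as an inhibitor of neutrophil elastase and cathepsin G, had the largest SE of the 5 listed serpins, 0.12. It read 7.32, 6.97 and 6.77 in Tyk2-/-, 7.65, 7.39 and 6.93 in Tyk2K923E and 7.43, 6.93 and 7.22 in WT. The groups overlapped. Tyk2-/- lay under Tyk2K923E by 0.33, 0.41 and 0.16 in experiments 1 to 3, with a mean difference of -0.30 (95% interval -0.59 to -0.02, adjusted p = 0.494). Tyk2-/- minus WT was -0.17 (-0.45 to 0.12, adjusted p = 0.72) and Tyk2K923E minus WT was 0.13 (-0.15 to 0.42, adjusted p = 0.791), and in both the sign differed between experiments.

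**Figure D3:**
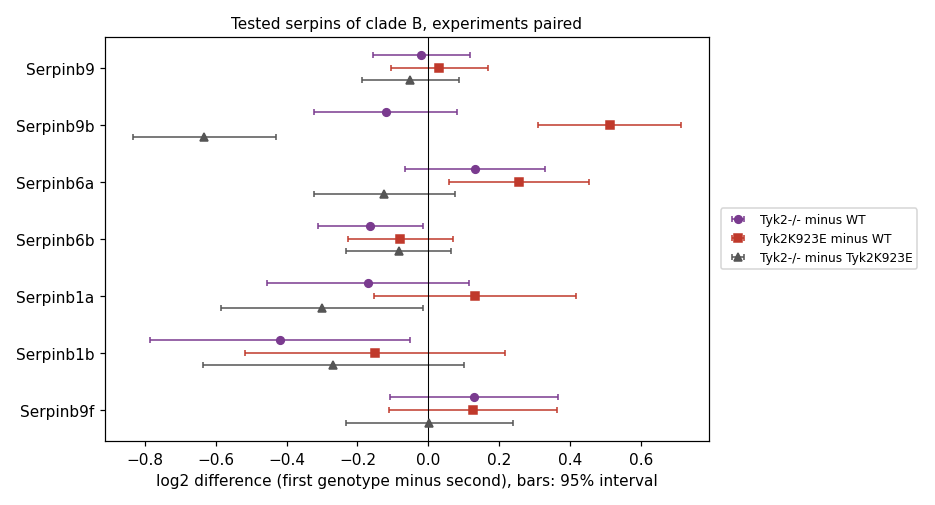
Log2 differences (horizontal axis) of the 5 listed serpins and the 2 other tested clade B serpins in the 3 comparisons of genotypes, with 95% intervals as bars. The intervals of Serpinb9b in Tyk2K923E against WT (0.31 to 0.71) and in Tyk2-/- against Tyk2K923E (-0.83 to -0.43) lie farthest from 0.

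The experiments also differed from each other, with no regard to genotype. Experiment 1 was the highest of the 3 in every genotype for Serpinb6a, Serpinb6b and Serpinb1a, a pattern that 22.2% of all genes tested shared. It was the lowest in every genotype for Serpinb9, as for 25% of all genes. The mean of experiment 1 exceeded that of the other experiments by 0.43 for Serpinb1a, 0.40 for Serpinb6a and 0.25 for Serpinb6b, and was 0.22 lower for Serpinb9 (difference -0.22). For Serpinb9b the value was 0.12, smaller than its difference between Tyk2K923E and WT. The experiments were not compared by a test.

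Of the 22 other clade B serpins listed, 20 were measured and 18 of these stayed under the array medians on all 9 arrays. Among all 23521 probe sets with 1 symbol, 13245 reached the medians on 3 or more arrays. Serpinb1b, a paralogue of Serpinb1a, and Serpinb9f, of the Serpinb9 group, were the 2 tested. Serpinb1b read 6.52, 6.00 and 5.46 in Tyk2-/-, 6.44, 6.03 and 6.31 in Tyk2K923E and 6.67, 6.33 and 6.24 in WT. It was lower in Tyk2-/- than in WT in each experiment, by a mean of -0.42 (95% interval -0.79 to -0.05, adjusted p = 0.49), with -0.78 in experiment 3. Serpinb9f differed by 0.13 in both mutants against WT (adjusted p = 0.748 in Tyk2-/- and 0.759 in Tyk2K923E). In the order of the cluster Serpinb9b lies between Serpinb9 and Serpinb1b, whose differences in Tyk2K923E against WT were 0.03 and -0.15. All 5 measured relatives of Serpina3g stayed under the medians as well, and so did 18 of 21 measured secreted serpins.

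Granzymes, perforin and cathepsins, with the named targets of these serpins among them, were read on the same arrays. Of the 10 tested granzymes and perforin, 0 passed the threshold in any of the 3 comparisons. Of all genes, 0.0874% passed it in each mutant against WT and 0.0238% between the mutants. By an unadjusted p under 0.05 there were 2 in Tyk2-/- against WT, Gzma and Gzmk, both lower, against 9.08% of all genes. In Tyk2K923E against WT there were 5, all higher and among them Gzmf, Gzmn and Prf1, against 10.0% of all genes. Gzmb, the target of Serpinb9, differed by 0.03 in Tyk2-/- and by 0.02 in Tyk2K923E against WT (adjusted p = 0.904 and 0.962). Its mean over all arrays was 13.36, near the highest value of any probe set, 14.1. How well the arrays resolve differences at such levels was not tested. Gzmm, the target of Serpinb9b, lay near the array medians with means of 5.79 ± 0.15 in Tyk2-/-, 5.72 ± 0.20 in Tyk2K923E and 5.84 ± 0.03 in WT (SD, n = 3). It differed by -0.12 in Tyk2K923E against WT (95% interval -0.32 to 0.07, adjusted p = 0.704).

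Gzma, the target of Serpinb6b, differed by -0.21 in Tyk2-/- (adjusted p = 0.519) and by -0.13 in Tyk2K923E against WT (adjusted p = 0.69). Gzmf, a granzyme of the cluster that holds Gzmb, read 11.56, 11.71 and 10.84 in Tyk2-/-, 12.55, 11.85 and 11.77 in Tyk2K923E and 11.87, 10.92 and 11.20 in WT. It was higher in Tyk2K923E than in WT in every experiment, by a mean of 0.73 (95% interval 0.26 to 1.19, adjusted p = 0.251). Gzmn was 0.58 higher (0.23 to 0.93, adjusted p = 0.215) and Prf1, which encodes perforin, 0.19 higher (0.05 to 0.33, adjusted p = 0.32).

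**Figure D4:**
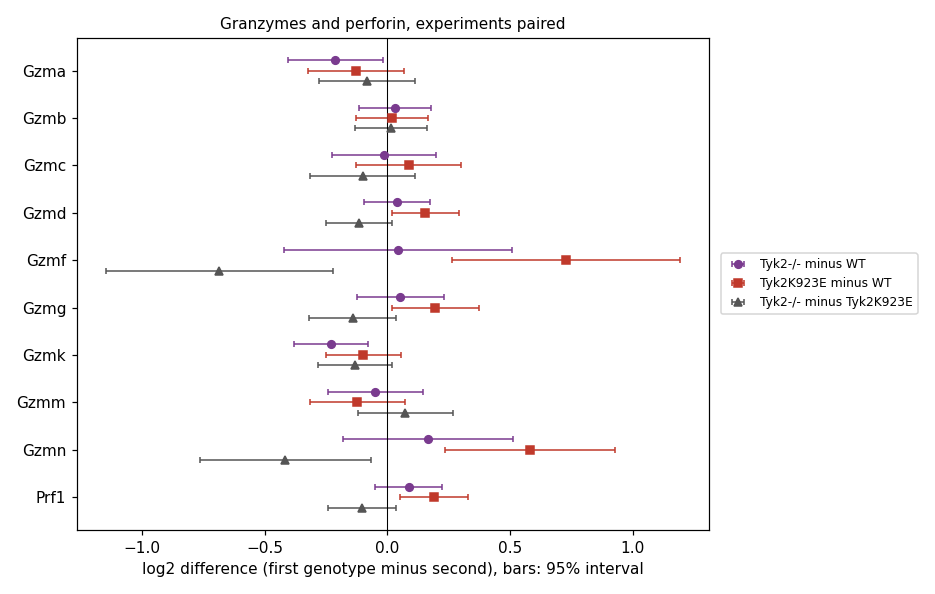
Log2 differences (horizontal axis) of 9 granzymes and perforin (Prf1) in the 3 comparisons of genotypes, with 95% intervals as bars. In Tyk2K923E against WT, the largest differences are those of Gzmf (0.73) and Gzmn (0.58), whereas Gzmb lies at 0.02.

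Of 11 tested cathepsins, 0 passed in any of the 3 comparisons. The shares of all genes that passed were 0.0874% in each mutant against WT and 0.0238% between the mutants. Ctsg, the target of Serpinb6a and Serpinb1a and mainly a neutrophil, basophil and mast cell gene, averaged 9.94 ± 0.42 in Tyk2-/-, 10.27 ± 0.65 in Tyk2K923E and 9.38 ± 0.45 in WT. It differed by 0.57 in Tyk2-/- and 0.89 in Tyk2K923E against WT (adjusted p = 0.5 and 0.198), with the same sign in each experiment. Elane, neutrophil elastase, stayed under the medians on every array. The 3 tested neutrophil markers were all lower in Tyk2K923E than in WT, against 49.1% of all genes tested. Their median difference was -0.096, and 1 of the 3 had the same sign in all 3 experiments. Ctsw, a cathepsin of killer lymphocytes, was 0.36 lower in Tyk2K923E than in WT (adjusted p = 0.167). Of 12 genes for granule structure and release, 0 passed in any comparison either, against the same shares of all genes. Their median difference was -0.0006 in Tyk2-/- and -0.02 in Tyk2K923E against WT.

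Genes with the pattern most like a serpin's were sought for the 3 serpins of widest range, by the mean absolute difference of values over 9 arrays after subtraction of the experiment means. For Serpinb9b they were Tfpi2, an inhibitor of serine proteases of the Kunitz type, at 0.0966, and Snord55, a small nucleolar RNA, at 0.104, where the median over all genes was 0.259. Tfpi2 differed by 0.39 and Snord55 by 0.32 in Tyk2K923E against WT. These genes were picked for likeness to Serpinb9b on the same arrays, so a rise there follows from the choice. For Serpinb1a they were 1700065D16Rik (0.0559) and Tmem258 (0.0583), and for Serpinb6a they were Pkd1l2 (0.0172) and Try4 (0.0231).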

How the data were processed

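The deposited table holds log2 values, and per the submitters' processing notes the authors normalised the arrays with RMA in Partek 6.6. The genome build is not given in the sources used here. Values ranged from 1.10 to 14.1 and were used as deposited. Each genotype had 3 arrays, and this number limits the precision.

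Probe sets were named from the platform annotation: 23521 carried 1 symbol, 1814 several and 16010 were not listed. Of the first kind, those at or above the array median on 3 or more arrays were retained, 13245 in number. The one with the highest mean stood for its gene, which left 12579 genes. They were fitted with limma 3.58.1 (R 4.3.3; lmFit, eBayes, statmod 1.5.0), with genotype and, as an additive block, the experiment, with Benjamini-Hochberg adjustment within a comparison and a threshold of 0.05. The experiment number in the titles pairs the arrays. Deviations from the genotype means correlated at 0.383 to 0.787 within an experiment (9 pairs) and at -0.71 to 0.559 otherwise (18 pairs). These ranges overlap. The 3 deviations of a genotype cancel out, which by construction lowers the correlations between experiments, so these values do not test the pairing. The members and lists were chosen with earlier results of these data known, and no p-value was adjusted over a list. Genes named were the members, list genes past the threshold, other tested clade B serpins, granzymes and Prf1, and for the 3 members of widest range the 2 genes of closest pattern. Ncr1, Cd3e, Cd3g, Cd4, Cd8a, Cd14, Cd68, Mcpt8, Cpa3, Ctsg, Ctsw and Elane lie outside this rule, their values having been seen before they were chosen. Alternatives covered the pairing, filter, normalisation, variance model, probe set choice and each array left out. The fit was tested on simulated data. Sequences were aligned with Biopython 1.88 and figures drawn with matplotlib 3.10.9 in Python 3.11.15.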

Additional observations from a re-analysis of the deposited data

How the results depend on the processing

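The count of serpins past the threshold was 0 in each comparison, and it remained 0 under all 23 alternatives in both comparisons of Tyk2-/-. In Tyk2K923E against WT it was 1 with an intensity trend in the prior variance, where Serpinb9b reached an adjusted p of 0.044, and 0 otherwise, leaving out any array or experiment included. Without the replicate block (arrays unpaired) the count stayed at 0, and the pairing changed no call of a serpin. Of 345 values of the 5 serpins under alternatives, 336 kept their sign and their side of the threshold. A change of the pairing, the filter or the prior variance left each difference as it was. So did leaving out an array of the genotype not compared. The sign could not change in those settings, so the count of 336 was partly fixed in advance. The 8 that changed sign all arose when an array or experiment was left out. Over these settings Serpinb9 ranged from -0.0607 to 0.0219 in Tyk2-/- and from -0.00897 to 0.0643 in Tyk2K923E against WT. Serpinb1a ranged from -0.306 (without the WT array of experiment 2) to 0.00378 (without the WT array of experiment 3) in Tyk2-/- and from -0.0334 (without experiment 2) to 0.339 (without experiment 3) in Tyk2K923E against WT. Without the Tyk2K923E array of experiment 2, Serpinb1a was -0.19 between the mutants. The cause was not tested. With arrays or experiments left out, Serpinb9b ranged from 0.40 to 0.61 in Tyk2K923E and from -0.16 to -0.05 (without the Tyk2-/- array of experiment 3) in Tyk2-/- against WT, and from -0.73 to -0.52 between the mutants. The mean over its probe sets gave 0.37, -0.20 and -0.57 in these comparisons, and the dimmer probe set 0.23, -0.28 and -0.51. Serpinb6a ranged from 0.0647 (without the WT array of experiment 1) to 0.213 (without that of experiment 2) in Tyk2-/- against WT, from 0.157 (without experiment 1) to 0.382 in Tyk2K923E against WT and from -0.232 (without the Tyk2K923E array of experiment 2) to -0.0433 (without that of experiment 1) between the mutants. Serpinb6b ranged from -0.204 to -0.108 (without the Tyk2-/- array of experiment 3), from -0.122 (without the Tyk2K923E array of experiment 3) to -0.0389 (without that of experiment 2) and from -0.138 (without experiment 2) to -0.0182 (without experiment 3) in the same order of comparisons. The counts of all genes called moved by more than 1.5 times: from 11 to between 3 and 26 in Tyk2-/- against WT, from 11 to between 1 and 66 in Tyk2K923E against WT and from 3 to between 2 and 6 between the mutants. The use of the dimmer Serpinb9b probe set was chosen after seeing the data.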
